A study of Mus musculus with 2 samples.

Results

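Integrins and laminins make up 38 of the 21770 protein-coding genes in the RefSeq table for mouse. The members were chosen by symbol alone: every numbered Itga or Itgb gene with its lettered variants, the lettered alpha subunits Itgal, Itgam, Itgav, Itgax, Itgae and Itgad, and every numbered Lama, Lamb or Lamc gene. They comprise 18 integrin alpha subunits, 9 integrin beta subunits and 11 laminin chains. A further division by textbook role set 8 leukocyte members, Itgal, Itgam, Itgax, Itgad, Itgae, Itgb2, Itgb2l and Itgb7, against the other 30. Accessible chromatin had been mapped by single-nucleus ATAC-seq, in which a transposase tags open DNA, in striatum of wild-type mouse embryos, with C57BL/6J and CD1 given as the background, at the embryonic stage E14.5. The 2 libraries formed 1 group, with no other genotype, treatment or age, and the labels do not state whether they came from separate embryos. Their deposited result was a single list of 87174 peaks by position on mm10, with no count, score or library. No value below therefore has a replicate error or a test between samples, and every comparison is a description of 1 peak list.

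An integrin is a pair of transmembrane chains, an alpha and a beta subunit, that binds extracellular matrix or a partner on another cell and couples it to actin. A laminin is a trimer of an alpha, a beta and a gamma chain, and laminins form the sheet of basement membrane to which epithelial, vascular and neural cells attach through integrins. In the embryonic brain, laminins line the pial surface and the vessels, and radial glia hold their endfeet there partly through integrins with the beta 1 chain. The leukocyte integrins are used by white blood cells for adhesion and migration, and Itgam is also a marker of microglia.

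None of the 8 leukocyte integrin genes had a peak at either end, whereas 28 of the 30 other members did. A peak was counted as an end peak where it came within 1000 bp of either end of the annotated gene span, inside or outside it, and 67.3% of all protein-coding genes had one. With 0 of 8 genes, the exact 95% binomial upper bound (Clopper-Pearson) was 36.9%, and the interval for 28 of 30 was 77.9% to 99.2%. These intervals cover the counting of genes only and are no test between the groups. They treat genes as independent draws, whereas the members were listed. Itgam, Itgax and Itgad also lie together in a stretch without a peak, as given below. Within the gene span, 3 of the 8 leukocyte members and all 30 other members held at least 1 peak, against 73.3% of protein-coding genes. That share of all genes rose with gene length, as given below. The median number of peaks in the span was 0 (range 0 to 2) in leukocyte members, 4.5 (range 1 to 13) in the other members and 1 over all protein-coding genes.

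Leukocyte genes were shorter, with a median span of 33476 bp against 73508 bp in the other members and 17219.5 bp over all protein-coding genes, and long genes hold more peaks. Pooled over the members, the spans held 1.44 peaks per 100 kb in leukocyte members, 4.63 in the other members and 5.25 in all protein-coding genes. The order of the other members and all genes depended on the summary: without Lama2, the longest span, the other members held 5.42 per 100 kb, and the median density per gene was 0 in leukocyte members, 6.23 in the other members and 5.10 in all protein-coding genes. All 8 leukocyte members lay in length classes 6 to 8 of 10, which hold genes of 17220 to 57306 bp. The 8 other members in those classes were Itga3, Itga5, Itga7, Itga10, Itgb1, Itgb4, Lama5 and Lamb3. This restriction was added after the data had been seen. End peaks were present at 0 of 8 leukocyte members, at 7 of these 8 other members and at 75.6% of the 6531 protein-coding genes in the classes. Span peaks were present at 3 of 8, 8 of 8 and 84.5% in the same order. Classes 9 and 10, the longest, hold 10 other members each. Of all genes in them, 93.7% and 97.9% had a span peak and 81.8% and 84.7% an end peak. In classes 6 to 8, leukocyte members had a median of 0 span peaks. It was 3.5 (range 1 to 6) in the 8 other members and 1 in all genes of these classes. No leukocyte member exceeded the median of its length class, 2 equalled it and 6 fell below it, whereas 19 of the 30 other members exceeded theirs, 3 equalled it and 8 fell below it. The same split over all genes was not computed, so these counts have no background. It need not be even, since in class 6, with a median of 1, 79.1% of genes held at least 1 span peak.

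**Figure D1:**
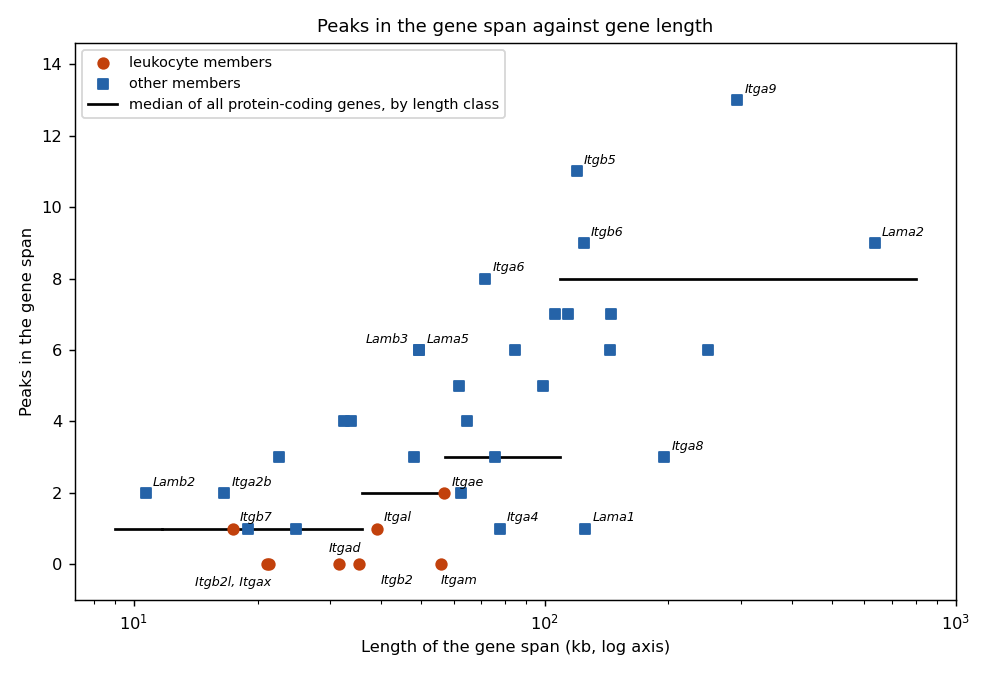
Number of peaks in the gene span (vertical axis) against the length of the span in kb (logarithmic horizontal axis) for 37 of the 38 members, with circles for leukocyte members, squares for other members and black lines for the median of all protein-coding genes in each length class. The 8 leukocyte members lie at 0 to 2 peaks, and the other members reach 13 peaks at Itga9.

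The wider locus, which is the span with 50 kb on each side, told less about the members themselves. Leukocyte loci held a median of 5.5 peaks (range 0 to 11), the other members 11.5 (range 4 to 21) and all protein-coding genes 6. At least 1 peak was present in the locus at 7 of 8 leukocyte members, all 30 other members and 85.9% of protein-coding genes. Of the 43 peaks counted at leukocyte loci, 4 lay in a member's span and 39 in the flanks, and 21 of those 39 overlapped an end window of another gene. Another 14 lay inside another gene and 4 between genes. Among flank peaks of the other members, 67 of 187 (35.8%) overlapped an end window of another gene, against 53.8% in leukocyte members. The share over flank peaks of all protein-coding genes was not computed, so these counts have no background. In the other members, 45% of the 340 peaks counted (330 distinct) were in the span or at an end of the member, against 9.3% in leukocyte members. Span length enters this contrast, since the flanks are fixed while the median span was 73508 bp in other members and 33476 bp in leukocyte members.

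**Figure D2:**
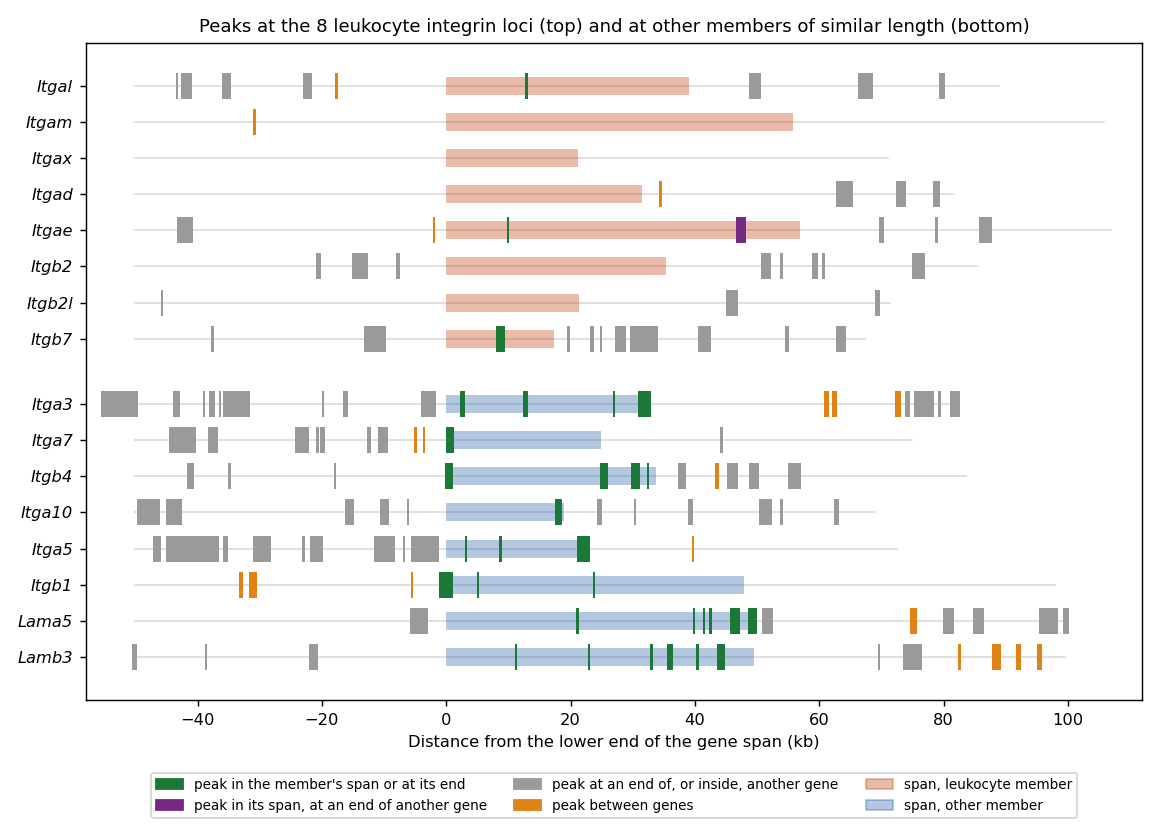
Peaks at the 8 leukocyte integrin loci (top) and the 8 other members of similar length (bottom), by distance in kb from the lower end of each gene span (shaded bar; thin lines mark 50 kb on each side). Green peaks lie in the member's span or at its end, and the violet peak in Itgae lies at an end of Haspin. Grey peaks lie at an end of, or inside, another gene, and orange peaks lie between genes. No leukocyte span has a peak at its end.

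Neighbouring genes on chromosome 7 encode the alpha M, alpha X and alpha D subunits, which pair with the beta 2 subunit on myeloid cells. Itgam (chr7:128062640-128118491), Itgax (chr7:128129526-128150657) and Itgad (chr7:128173933-128205504) each held 0 peaks in their spans. They lay together in a stretch of 176 kb with no peak, from the end of a 323 bp peak at 128031948 to the start of a 464 bp peak at 128208157. Of the 87153 gaps between neighbouring peaks, 2.01% were at least as long, and the median gap was 10724 bp. That share counts gaps and not bases, and such long gaps take up a larger share of the genome than of the gaps. The Itgam locus held 1 peak, 30692 bp from the gene, the Itgax locus 0 and the Itgad locus 4, of which the nearest lay 2653 bp beyond its span. The other 3 at Itgad were at Armc5 with 9130023H24Rik, or in Tgfb1i1.

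Itgal, which encodes the alpha L subunit of the leukocyte integrin LFA-1, lies apart from that cluster at chr7:127296139-127335137. It had a single span peak of 468 bp, from 127308848 to 127309316, well inside the gene. Of its 8 flank peaks, 6 were at ends of Zfp771, Dctpp1, Sephs2, Zfp768, Gm51260 and Zfp747. Itgb2 (chr10:77530329-77565708), which encodes the beta 2 subunit shared by these receptors, had 0 span peaks and 8 flank peaks. These lay at Fam207a, the predicted gene Gm36040, Pttg1ip and Sumo3, and the nearest was 7358 bp from the Itgb2 span. Itgb2l (chr16:96422288-96443664), a beta 2-like gene of mouse neutrophils, had 0 span peaks and 3 flank peaks, of which 1, 1823 bp wide, was at an end of Pcp4, a calmodulin-regulating peptide gene.

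The alpha E and beta 7 subunits form a receptor for E-cadherin on lymphocytes of epithelia. Itgae (chr11:73090505-73147449) held 2 span peaks, of 86 bp and 1586 bp. The wider peak, from 73137178 to 73138764, overlapped an end of Haspin, a histone kinase gene nested in Itgae. The span peak at no end of another gene was thus the one of 86 bp. Itgb7 (chr15:102215994-102233405) held 1 span peak of 1544 bp, from 102223932 to 102225476, in the middle of the gene and at no annotated gene end. Its 10 flank peaks were the most among leukocyte members. Of these, 6 lay in or at the neighbouring retinoic acid receptor gene Rarg, among them a peak of 4546 bp.

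Promoter windows separate the annotated start from the far end of a gene, which end peaks do not. RefSeq windows (GRCm38.p6, 250 bp before to 50 bp after a start) were matched for 24 of the 38 members and 17491 protein-coding genes. A start peak, one that overlaps a window by at least 1 bp, was present at 0 of 4 leukocyte members, 16 of 20 other members and 64.8% of protein-coding genes. The nearest peak lay 78558 bp from the Itgax window, 30442 bp from that of Itgam, 23471 bp from that of Itgb2l and 3271 bp from that of Itgb7. The 250 bases before these starts are printed 5′ to 3′ on the gene's strand, with each CpG dinucleotide in capitals, because CpG content moved with the presence of peaks.
Itgam (chr7:128062390-128062639, plus strand): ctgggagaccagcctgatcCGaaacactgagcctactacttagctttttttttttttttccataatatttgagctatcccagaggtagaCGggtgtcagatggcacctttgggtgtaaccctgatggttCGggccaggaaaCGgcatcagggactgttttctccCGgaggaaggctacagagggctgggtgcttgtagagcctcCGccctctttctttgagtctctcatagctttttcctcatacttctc
Itgax (chr7:128129300-128129549, plus strand): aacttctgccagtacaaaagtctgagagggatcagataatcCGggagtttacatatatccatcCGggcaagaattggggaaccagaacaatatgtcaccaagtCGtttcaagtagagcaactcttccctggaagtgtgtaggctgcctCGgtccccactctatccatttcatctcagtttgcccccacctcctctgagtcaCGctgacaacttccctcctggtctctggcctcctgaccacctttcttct
Itgb2l (chr16:96443615-96443864, minus strand): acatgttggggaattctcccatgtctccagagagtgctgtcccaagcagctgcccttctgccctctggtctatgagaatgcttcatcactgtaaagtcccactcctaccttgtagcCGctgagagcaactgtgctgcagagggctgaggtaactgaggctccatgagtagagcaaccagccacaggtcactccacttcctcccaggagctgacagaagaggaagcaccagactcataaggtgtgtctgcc
Itgb7 (chr15:102231936-102232185, minus strand): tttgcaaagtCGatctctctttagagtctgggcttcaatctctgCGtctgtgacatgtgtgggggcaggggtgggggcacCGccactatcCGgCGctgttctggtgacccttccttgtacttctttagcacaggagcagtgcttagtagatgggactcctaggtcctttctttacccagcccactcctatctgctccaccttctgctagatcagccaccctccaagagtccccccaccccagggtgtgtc

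Windows of other members that lay under a peak had mostly more CpG. The same 250 bases are shown for Itgb1, the beta subunit shared by most matrix receptors, for the fibronectin- and vitronectin-receptor subunit gene Itgav, for Itga8, whose product binds nephronectin, and for the laminin beta 1 gene Lamb1.
Itgb1 (chr8:128685404-128685653, plus strand): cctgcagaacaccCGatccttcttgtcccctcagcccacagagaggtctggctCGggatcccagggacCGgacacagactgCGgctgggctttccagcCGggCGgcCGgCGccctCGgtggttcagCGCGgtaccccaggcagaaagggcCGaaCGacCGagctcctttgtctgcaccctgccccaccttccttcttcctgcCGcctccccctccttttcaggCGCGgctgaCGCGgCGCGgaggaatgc
Itgav (chr2:83724147-83724396, plus strand): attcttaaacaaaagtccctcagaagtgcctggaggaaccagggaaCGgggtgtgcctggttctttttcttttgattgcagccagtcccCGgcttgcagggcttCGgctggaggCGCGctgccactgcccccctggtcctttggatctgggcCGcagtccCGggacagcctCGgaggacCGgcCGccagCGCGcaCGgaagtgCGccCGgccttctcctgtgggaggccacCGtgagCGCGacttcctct
Itga8 (chr2:12301945-12302194, minus strand): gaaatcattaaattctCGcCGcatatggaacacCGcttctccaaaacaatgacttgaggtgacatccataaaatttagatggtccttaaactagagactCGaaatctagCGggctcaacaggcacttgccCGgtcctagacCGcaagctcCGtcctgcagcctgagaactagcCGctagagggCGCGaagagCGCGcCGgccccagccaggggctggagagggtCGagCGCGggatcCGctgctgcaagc
Lamb1 (chr12:31265043-31265292, plus strand): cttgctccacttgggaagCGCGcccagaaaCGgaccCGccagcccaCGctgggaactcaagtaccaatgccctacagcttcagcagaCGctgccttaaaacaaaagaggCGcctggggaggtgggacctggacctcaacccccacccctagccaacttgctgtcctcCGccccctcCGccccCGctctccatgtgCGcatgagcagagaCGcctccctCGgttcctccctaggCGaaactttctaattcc

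Over whole windows of 300 bases, the CpG count was 2 to 6 in the 4 leukocyte windows (median 5), 1 to 27 in the 23 windows of other members (median 12) and 13 at the median of 21262 windows of protein-coding genes. Itgam had 6, Itgax and Itgb7 5 each and Itgb2l 2, against 27 in Itgb1, 24 in Itgav, 23 in Itga8 and 18 in Lamb1. The last 4 were printed as examples and lie above the median of 12. Other windows under a peak held from 1 at Lama2 and 4 at Lamb2, through 10 at Itga4 and 12 at Itga1, to 24 at Itga3 and Lama5. Over all protein-coding genes, a peak was present at 9.84% of windows with 0 to 4 CpG, 47.1% with 5 to 9, 92.2% with 10 to 19 and 98.4% with 20 or more. Among windows with 0 to 4 CpG, 0 of 1 in leukocyte members (Itgb2l) and 2 of 4 in other members lay under a peak, at Lama2 with 1 CpG and at Lamb2 with 4. Among windows with 5 to 9 CpG, 0 of 3 in leukocyte members and 0 of 4 in other members lay under a peak. With 10 or more CpG there was no leukocyte window, and 14 of 15 windows of other members did. The part of CpG content in the missing leukocyte start peaks was not tested.

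Other members without a start peak include Itga2b, the alpha subunit of the platelet fibrinogen receptor, and the collagen receptor subunit gene Itga10, with 6 CpG each in the window. Lama2, the laminin alpha chain of muscle and Schwann cell basement membranes, is shown beside them as the opposite case, since its window held 1 CpG and yet met a peak.
Itga2b (chr11:102469884-102470133, minus strand): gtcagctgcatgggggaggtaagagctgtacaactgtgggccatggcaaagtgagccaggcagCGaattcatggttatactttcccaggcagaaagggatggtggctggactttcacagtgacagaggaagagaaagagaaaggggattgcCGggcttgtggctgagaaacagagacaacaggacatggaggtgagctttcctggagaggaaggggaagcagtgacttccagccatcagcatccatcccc
Itga10 (chr3:96645334-96645583, plus strand): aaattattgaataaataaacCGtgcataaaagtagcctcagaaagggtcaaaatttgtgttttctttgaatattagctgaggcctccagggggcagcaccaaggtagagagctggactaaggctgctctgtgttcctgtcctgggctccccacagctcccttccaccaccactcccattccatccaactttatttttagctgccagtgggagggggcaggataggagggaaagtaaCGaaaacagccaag
Lama2 (chr10:27616943-27617192, minus strand): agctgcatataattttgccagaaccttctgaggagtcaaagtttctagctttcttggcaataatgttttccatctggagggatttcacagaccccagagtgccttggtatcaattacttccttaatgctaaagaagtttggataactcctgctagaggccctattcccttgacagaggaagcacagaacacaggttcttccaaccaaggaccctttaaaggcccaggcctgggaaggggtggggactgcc

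**Figure D3:**
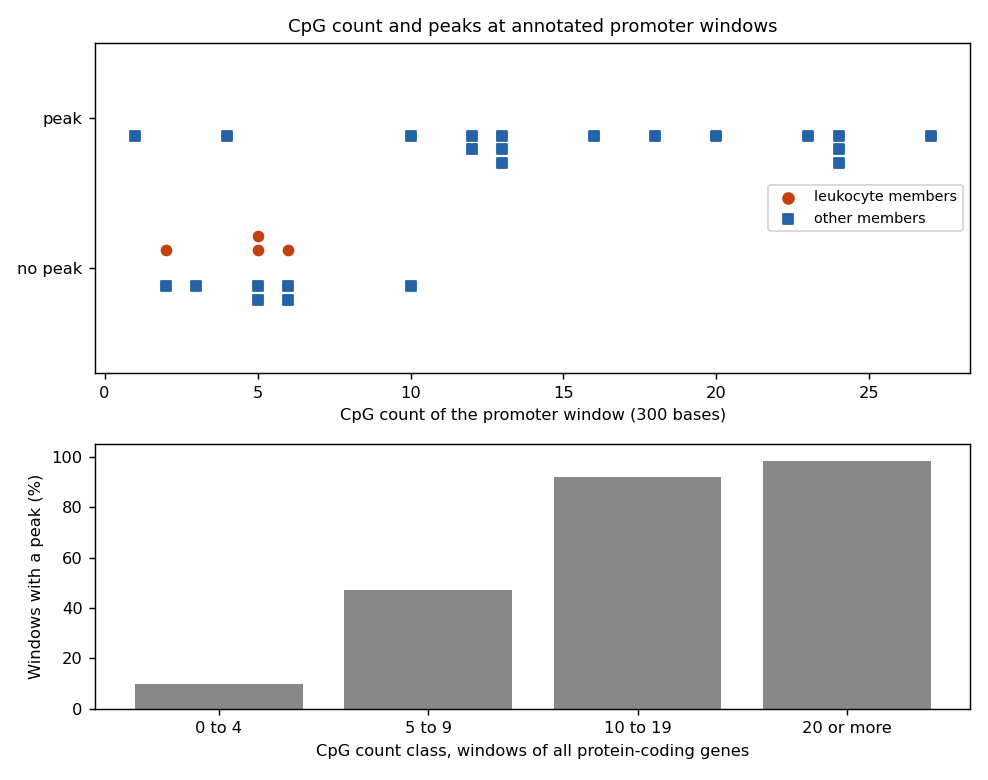
Top, CpG count of each member's 300-base promoter window (horizontal axis) by whether a peak overlapped it, with circles for leukocyte members and squares for other members, spread vertically where they coincide. Bottom, percent of windows of all protein-coding genes with a peak by CpG class, from 9.84% to 98.4%; the 4 leukocyte windows hold 2 to 6 CpG and none met a peak.

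Short motifs were searched in the windows on both strands. GAGGAA, the core of sites of the myeloid factor PU.1, was found in 3 of 4 leukocyte windows, 12 of 23 windows of other members and 27.4% of all windows. The GC box GGGCGG was found in 1 of 4 leukocyte windows, 11 of 23 others and 46.2% of all. TGTGGT, the core of RUNX sites, was found in 1 of 4, 2 of 23 and 15.0% in the same order, CCAAT in 1 of 4, 3 of 23 and 38.2%, and the homeodomain core TAATTA in 0 of 4, 0 of 23 and 4.53%. No searched motif is part of another. A match is a description of letters and not a bound site.

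Among the laminin-binding integrin subunits, all 4 had an end peak. In the length class of their median span, 76.4% of all protein-coding genes had one, and so few genes cannot be told from that share. Itga6 (chr2:71786886-71858427), whose product pairs with the beta 1 or beta 4 subunit, held 8 span peaks where the median of its length class was 3. Its end peak was 1784 bp wide and the other 7 were spread through the gene with widths of 52 to 1090 bp. Itga3 (chr11:95044475-95076844), which also acts in neuronal migration, held 4 span peaks and 20 in its locus, including a start peak of 2079 bp. Flank peaks at Itga3 included 3 at ends of Dlx3 and others at Ppp1r9b, a gene of dendritic spines. Itgb4, the partner of alpha 6 in hemidesmosomes, had 4 span peaks, and the muscle gene Itga7 had 1, a 1415 bp peak at its end.

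Collagen-binding alpha subunits pair with beta 1. Itga11 held 7 span peaks, Itga1 6, Itga2 5 and Itga10 1. Itga1, Itga2 and Itga11 had start peaks of 1209, 1151 and 1650 bp, whereas the single peak of Itga10, 1232 bp wide, lay at its far end, and the peak nearest to its window was 5815 bp away. In Itga1 the widest span peak (2094 bp) was not the start peak but lay at an end of Pelo, a ribosome-rescue factor gene nested in Itga1. Itga1 and Itga2 are neighbours on chromosome 13, 25978 bp apart, and 3 of their locus peaks are counted for both.

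**Figure D4:**
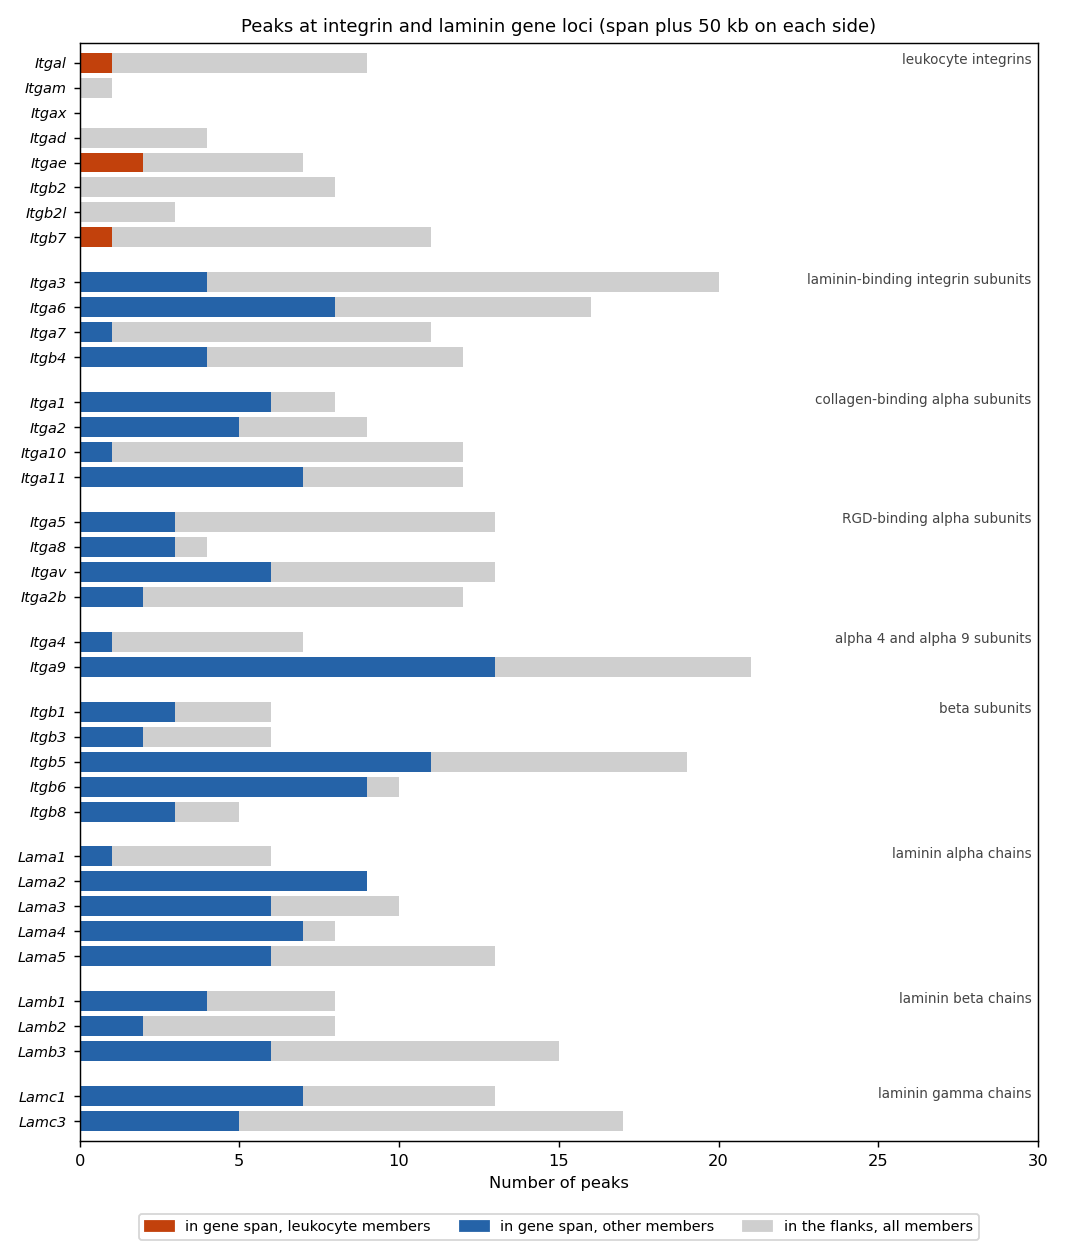
Number of peaks at 37 of the 38 loci, split into peaks in the gene span (orange for leukocyte members, blue for other members) and peaks outside it within 50 kb (grey), grouped by role. Leukocyte spans hold 0 to 2 peaks and those of other members 1 to 13; Lama2 is the member with all 9 peaks in its span.

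Alpha subunits that recognise the arginine-glycine-aspartate motif of fibronectin and related proteins had start peaks at Itgav, Itga5 and Itga8. The peaks were 1995, 2120 and 1314 bp wide. Itga5 held 3 span peaks. Itgav held 6, and its start peak lay inside the annotated span, so that Itgav counted among the 2 other members with no end peak. Itga8 had 3 span peaks over 195354 bp, against a median of 8 in its length class. Itga2b had no start peak. Its 2 span peaks were 1599 and 2451 bp wide and together covered 24.4% of the span, the largest share among the members, and the wider peak lay 1740 bp from the window. Of the pair that share binding to VCAM-1 and related ligands, Itga9 held 13 span peaks over 294295 bp and Itga4 held 1, its 1508 bp start peak, over 77689 bp. At Itga9 the RefSeq window lay inside the span and had no peak, while the low-coordinate end of the span was under a peak of 1609 bp.

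Beta subunits outside the leukocyte set all had an end peak. In the length class of their median span, 81.8% of all protein-coding genes had one, and so few genes cannot be told from that share. Itgb1 had 3 span peaks with a start peak of 2326 bp, and Itgb8, which with alpha v activates latent TGF-beta in the neural and vascular tissue of the brain, had 3 with a start peak of 2168 bp. Itgb5 held 11 span peaks, which covered 10.2% of its 119674 bp, and a 2253 bp peak lay near its start peak of 1623 bp. Itgb6, a subunit of epithelia, held 9, with a start peak of 585 bp and a wider one of 2175 bp inside the gene. Itgb3, the partner of alpha v and of the platelet alpha IIb subunit, held 2, of 1429 and 450 bp.

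Laminin chains had an end peak at 10 of 11 genes, with Lamb3 the exception. In the length class of their median span, 81.8% of all protein-coding genes had one, so the laminin count is near that share. The widest peaks in or within 1000 bp of the span of any of the 38 members were 2717 bp at Lamc1, the gamma chain of most laminins, and 2698 bp at Lama1, the alpha chain of early embryonic basement membranes. These were the only members with a peak among the broadest 5% of all peaks (wider than 2544 bp): 0 of 8 leukocyte and 2 of 30 other members, against 17.3% of protein-coding genes. The share of other members moved with the threshold, to 12 of 30 against 31.5% of protein-coding genes for the broadest 10% and to 0 of 30 against 3.94% for the broadest 1%. In the length classes of the leukocyte members, a comparison added after the data had been seen, it was 0 of 8 against 14.9%. At Lama1 that peak was the only span peak in 125519 bp, where the length-class median was 8. Lama5, the most widely used alpha chain of later basement membranes, held 6 span peaks in 49532 bp, of which the start peak was 1580 bp wide and the others 118 to 1481 bp. Lama4, a chain of vessel walls, held 7, and Lama2 held 9 over 635907 bp, the longest span of any member.

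Lamb1 held 4 peaks in 64499 bp and Lamb2, a chain of synaptic and vascular basement membranes, 2 in 10684 bp, of which 1 was also at an end of Usp19. Lama3 and Lamb3, chains of epithelial basement membranes, held 6 span peaks each. Lama3 had an end peak of 1031 bp, whereas at Lamb3 the RefSeq windows lay 3124 and 3373 bp from the nearest peak. Lamc3 held 5 span peaks, and an end peak of 1894 bp at that gene was also at an end of Aif1l. Of 34 end peaks of members in all, 7 were also at an end of another gene.

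Peaks at starts and ends were wider than those inside genes. End peaks of the members had a median width of 1422 bp and the 123 other peaks in their spans one of 450 bp. Over the whole list, the medians were 1406 bp for 20415 peaks at gene ends and 488 bp for 66759 elsewhere. The 16 start peaks of other members ranged from 552 bp at Lama2 to 2326 bp at Itgb1. The 4 span peaks of leukocyte members were 86, 468, 1544 and 1586 bp wide, none at a member's own end.

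Marker genes of the cells that could be in the tissue were counted the same way. End peaks were present at 8 of 8 striatal and ganglionic eminence markers, 7 of 7 radial glia markers, 4 of 4 mural, 4 of 5 meningeal fibroblast and 5 of 7 endothelial markers, beside 67.3% of all protein-coding genes. In the length class of each list's median gene, the share of all genes was 76.4% for the striatal, 58.4% for the radial glia, 72.8% for the fibroblast and 78.8% for the mural and endothelial lists, so that the fibroblast and endothelial counts were near it. Of 8 microglia and leukocyte markers, with a share of 71.7% in that class, 3 had one, namely Spi1, P2ry12 and Tmem119, while Ptprc, Csf1r, Cx3cr1, Aif1 and Tyrobp had none. Span peaks were present at 6 of these 8, which is near the 79.1% of all genes in that length class. Aif1 and Tyrobp held 0 and Ptprc 5. Of 4 megakaryocyte and platelet markers only Itga2b, itself a member, had an end peak, 83 bp wide at its far end, and Pf4, Gp9 and Gp1ba held 0 span peaks. In the length class of that list's median gene, 65.5% of all genes had an end peak and 66.0% a span peak. A missing peak in a list pooled over nuclei cannot tell apart few nuclei of a cell type and closed chromatin in that type, and the part of leukocyte number in the result was not tested.

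Partners of integrins were described from 3 lists. In the length class of the median gene, the share of all protein-coding genes with an end peak was 78.8% for the adaptor list, 81.8% for the matrix list and 71.7% for the cell-surface list. Of 20 adaptor genes that link integrins to actin and kinases, 18 had an end peak, with 35 span peaks at the kinase gene Fyn, 18 at the talin gene Tln2 and 17 at the parvin gene Parvb. The 2 adaptor genes with 0 span peaks were Fermt3 and Parvg, the kindlin and parvin of blood cells. The 2 adaptor genes without an end peak were Parvg and Lims2, of which Lims2 held 4 span peaks. Fermt3 had an end peak 409 bp wide outside its span. The related genes Fermt1 and Fermt2 held 2 and 3 span peaks over 41860 and 71519 bp, and Parva held 14 over 163983 bp. Fermt3 and Parvg are shorter, at 20512 and 18804 bp, and long genes hold more peaks. Among 18 genes of matrix ligands and basement membrane, 15 (83.3%) had an end peak, which is near that share, led by 22 span peaks at the tenascin gene Tnr, 17 at Ntn1 and 16 at Col4a2, and the osteopontin gene Spp1 held 0. Among 17 cell-surface partners, 14 had an end peak, led by 11 span peaks at the syndecan gene Sdc3 and 5 at Tgfb2, and Icam2, a ligand of LFA-1, held 0. Other ligands of leukocyte integrins in that list did hold span peaks: 2 at Icam1, which also binds LFA-1, 3 at Vcam1 and 2 at Madcam1, and all of these had an end peak.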

How the data were processed

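The submitters' processing notes name the build mm10 and, without role or order, the tools Signac and Cell Ranger ATAC (version 1.2.0). The deposited file is a list of 87174 peak positions without a value column, and neither the peak caller nor any pooling of libraries before calling is given in the sources used here. Read depth and nuclei are unknown, so precision per peak cannot be given. The coordinate base of the list is unstated, and positions can be off by 1 bp.

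Genes came from RefSeq (GRCm38.p6, the assembly named mm10). Of 49997 entries, 406 were left out because they lay on scaffolds or on no main chromosome, or repeated the symbol of an earlier entry. Peaks were assigned by an overlap of at least 1 bp, in Python 3.11.15 with pandas 2.3.3. Counting was tested on simulated data. The members, the leukocyte list, the marker and partner lists and the motifs were chosen with earlier results of these data known. All members may be named. Of each partner list, up to 3 genes with most span peaks and those with none are named. Parva, Lims2, Fermt1, Fermt2, Icam1, Vcam1, Madcam1 and genes near members were named after their values were seen. Motifs and CpG were counted in RefSeq windows. Windows were not matched for Itgal, Itgad, Itgae, Itgb2, Itga6, Itga7, Itgb3, Itgb4, Lama1, Lama3, Lama4, Lamc1, Lamc3 and 1 further member, which is counted in the totals and is not reported by itself here. Alternatives were the flank, the overlap rule, the window, the width filter and the leukocyte list.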

Additional observations from a re-analysis of the deposited data

How the results depend on the processing

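Of 53 alternative values, 40 were classed as the same as the reported value and 13 as moved. The class of same values allowed some change, such as a leukocyte locus median of 7.5 against 5.5 with 1 member per run of overlapping loci. Each value describes 1 group and has no sign, so a reversal could not occur and was not tested. Under every alternative run for them, 0 leukocyte members had a broad peak and 0 a start peak, except that the list with Itga4 and Itga2b added had a start peak at 1 of 6 genes, Itga4. Itga2b, also added there, has an end peak but no start peak. Most of these settings could only remove peaks or genes, so a count of 0 could not change under them. Only the window around either end, the broadest 10% and the longer list could have raised it. Leukocyte locus medians were 1 with a flank of 10 kb, 12 with 100 kb, 0 when peaks counted for the nearest gene alone and 3.5 with peaks wider than the median. The values for other members under the same settings were 6, 16, 6 and 6. The leukocyte span median was 0.5 with Itga4 and Itga2b added and 0.5 with 1 member per run of overlapping loci. For other members the span median was 2 with peaks wider than the median. Broad peaks were at 0% of other members for the broadest 1%, at 40% for the broadest 10%, and at 0% in the length classes of the leukocyte members, the last chosen after seeing the data. The cause was not tested. No paired analysis was possible because the list carries no values per library. Leaving out a library was not possible for the same reason. The lack of depth limits all statements on missing peaks.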

Other observations

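Several values belong to no comparison above. The locus of Itga5, the fibronectin receptor subunit, held a flank peak of 8506 bp at ends of Copz1 and Gpr84. At Itgb7 the 1544 bp peak covered 8.87% of the gene, more than in any other leukocyte member. The 6 peaks in the Itga4 flanks all lay inside Cerkl. At Lama2, apart from the 552 bp start peak, 8 peaks lay between positions 26995517 and 27322882, and no peak lay between 27322882 and 27616486.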
